A study of Bos taurus with 26 samples.

Results

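The 240 gene identifiers (IDs) described here were abundant in both the endometrium and the corpus luteum of Holstein cows, at similar levels in each. They are the IDs whose mean was at least 300 CPM (each raw count divided by the total count of its library and multiplied by 1000000) in both tissues, with the tissue means within 2-fold of each other. They make up 0.975% of the 24616 Ensembl cattle IDs in the files. At that level there were 423 IDs in the corpus luteum and 488 in the endometrium, of which the 240 were 56.7% and 49.2%. Another 48 IDs reached 300 CPM in both tissues but differed by more than 2-fold, 29 of them higher in the corpus luteum and 19 higher in the endometrium. The level in each tissue and the ratio of the tissues chose the members, so both are given as a description with no test.

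Cows came from a line of high fertility (Fert+) and a line of low fertility (Fert-), and every sample was a biopsy taken on day 13 of the oestrous cycle. Messenger RNA was sequenced from 8 Fert+ and 6 Fert- biopsies of the uterine horn ipsilateral to the corpus luteum, and from 7 Fert+ and 5 Fert- biopsies of the corpus luteum itself. The labels give each library a batch from 1 to 4 and a parity, the number of calvings, from 2 to 4. Luteal batch 4 had no Fert- library, and in luteal batch 1 the 2 Fert+ libraries had parity 2 whereas the 2 Fert- libraries had parity 4, so line and parity cannot be told apart there. The libraries of luteal batch 4, Fert+ replicates 15 and 18, do not inform a luteal line effect fitted with batch as a term. Whether each library represents its own cow is not stated in the labels, and p-values then describe only the variation among these samples. Nor do the labels link the tissues of a cow, and no pairing of the tissues was used.

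The corpus luteum is the gland that forms in the ovary after ovulation and secretes progesterone, and the endometrium is the progesterone-responsive lining of the uterus that receives the embryo. Transcripts that are abundant in tissues as different as these usually include those of functions every cell needs, such as protein synthesis, energy metabolism and the cytoskeleton. Which of these functions the 240 IDs serve was not determined: 0 of the 24616 IDs could be paired with a gene symbol in the reference table used here. The 19 lists of functional genes and cell type markers drawn up for this work were therefore not analysed, and the tissue labels were not checked against named marker genes. A CPM value also grows with the length of a transcript, so CPM values compare samples for the same ID, not the number of molecules of different IDs.

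Library totals ranged from 9627378 to 18008417 counts. The median member had between 6137.5 and 11733.5 counts in a library, which gives a median counting standard deviation of 1.07% of its value. The 95% Wilson interval of the share of a library held by all members together was at most 0.0272 percentage points to either side. These intervals cover counting error only, since the reads carried no molecular identifiers. Luteal Fert+ replicates 15, 16, 18 and 19 stood apart from the other 8 libraries in an earlier analysis of the same counts, so results that rest on them are given with and without them. In the endometrium, the 3 libraries labelled batch 1 and parity 4 (Fert+ replicate 10 and Fert- replicates 6 and 14) are treated in the same way.

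Although chosen to be alike in the tissues, the members leaned towards the endometrium. The mean was higher in the endometrium for 171 of the 240 IDs and higher in the corpus luteum for 69, and the median ratio of the corpus luteum mean to the endometrium mean was 0.766. Without the 4 corpus luteum libraries that stood apart, that median ratio was 0.822. The means were within 1.1-fold for 35 members and within 1.5-fold for 155. The lower of the tissue means was at least 1000 CPM for 41 members and at least 2000 CPM for 9, and it was under 500 CPM for 108. In every library, 163 members were at 300 CPM or more and 232 were at 150 CPM or more. The values of the 12 corpus luteum and 14 endometrium libraries did not overlap for 20 members, 13 of them higher in the endometrium and 7 higher in the corpus luteum, and for 19.6% and 6.24% of the 14726 IDs tested in either tissue. The selection on the tissue ratio limits these counts.

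**Figure D1:**
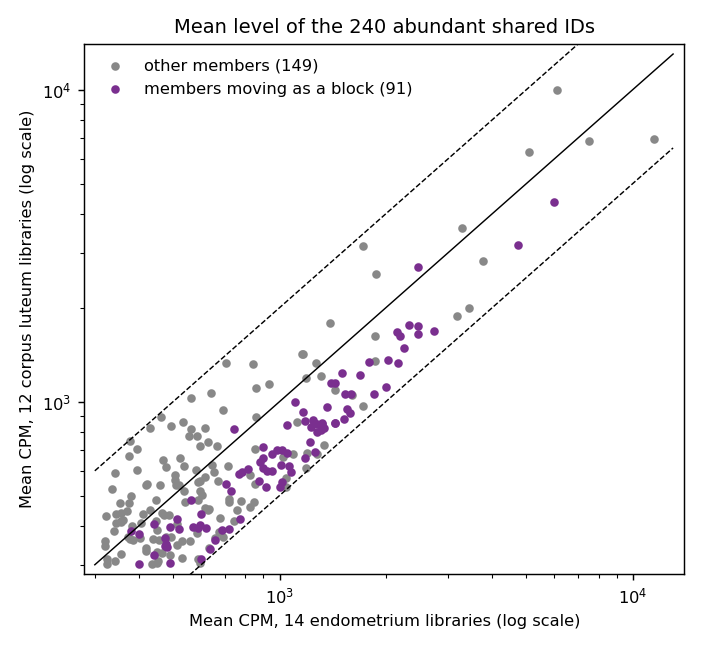
Mean CPM of each of the 240 IDs in 14 endometrium libraries (horizontal, log scale) against 12 corpus luteum libraries (vertical, log scale), with the line of equal means and the 2-fold limits dashed. Points lie below the line of equal means for 171 IDs, and the 91 purple points, a block described later in the text, lie below it for 88.

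At the edges of the selection, members and non-members differed little. ENSBTAG00000011424 and ENSBTAG00000015955 had the lowest qualifying means, 301.8 and 302.5 CPM in the corpus luteum. ENSBTAG00000016174 missed the level at 299.998 CPM in the corpus luteum, and ENSBTAG00000015131 missed it at 298.4 CPM in the endometrium. The tissue means of ENSBTAG00000014724 and ENSBTAG00000016959 were 1.97-fold and 1.98-fold apart, just inside the limit, whereas those of ENSBTAG00000004840 and ENSBTAG00000021499 were 2.01-fold and 2.03-fold apart, just outside it.

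The 5 IDs with the highest lower mean showed several kinds of behaviour. ENSBTAG00000021466 averaged 6935 ± 2082 CPM in the corpus luteum (SD, n = 12) and 11510 ± 4490 CPM in the endometrium (SD, n = 14). ENSBTAG00000013472 averaged 6845 ± 2385 CPM in the corpus luteum and 7539 ± 3004 CPM in the endometrium, and ENSBTAG00000013103 averaged 6329 ± 2975 CPM and 5080 ± 2268 CPM. Looking at these values afterwards, the 3 IDs had the same extremes in the endometrium. Fert+ replicate 7 was the highest endometrium library for each, at 22281, 14242 and 9962 CPM, and Fert+ replicate 10 the lowest, at 5025, 3183 and 2252 CPM. Both of these libraries were of batch 1.

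The remaining 2 of the 5 varied less. ENSBTAG00000043558 was higher in the corpus luteum, at 10005 ± 867 CPM (SD, n = 12), than in the endometrium, at 6082 ± 1129 CPM (SD, n = 14). Its lowest corpus luteum value was 8554 CPM and its highest endometrium value 8427 CPM, so the tissues did not overlap. ENSBTAG00000014534 was at 4374 ± 857 CPM in the corpus luteum and 5986 ± 744 CPM in the endometrium, and its tissue ranges overlapped.

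Together the 240 IDs took a steady share of the endometrial counts and a more variable share of the luteal counts. In the endometrium they held 24.8% ± 1.5 of all counts (SD, n = 14), with 24.8% ± 1.87 in Fert+ (SD, n = 8) and 24.9% ± 0.989 in Fert- (SD, n = 6). In the corpus luteum they held 20.7% ± 3.17 (SD, n = 12), with 18.7% ± 2.14 in Fert+ (SD, n = 7) and 23.5% ± 2.10 in Fert- (SD, n = 5). Fert+ replicates 15, 16, 18 and 19 had the 4 lowest luteal shares, 17.7%, 16.8%, 17.1% and 17.5%. The remaining Fert+ replicates 21, 23 and 24 had 19.7%, 22.8% and 19.4%. Fert- replicates 17, 20, 25, 27 and 28 had 26.4%, 22%, 22.2%, 21.7% and 24.9%. Only Fert+ replicate 23 lay within the Fert- range. The luteal difference between lines was -4.75 percentage points, and -2.82 without the 4 libraries that stood apart. With TMM (trimmed mean of M-values) scaling of the CPM, in both the selection and the share, it was -8.56 points. These shares sum IDs chosen by their level and carry no test.

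**Figure D2:**
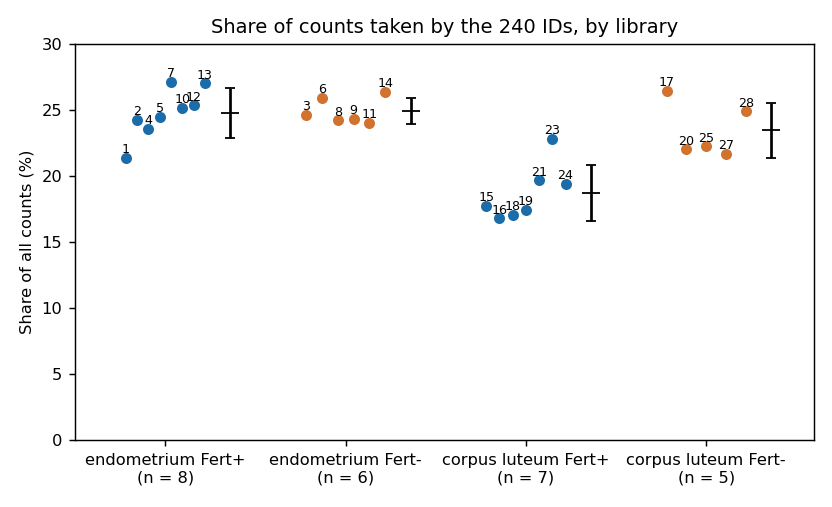
Share of all counts taken by the 240 IDs in each library (points, numbered by replicate) with the group mean and SD to the right of each group. The endometrium libraries lie between 21.4% and 27.1% in both lines, while in the corpus luteum the Fert+ libraries lie between 16.8% and 22.8% and the Fert- libraries between 21.7% and 26.4%.

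Within a line, the median spread of the members was below that of all tested IDs in the endometrium and close to it in the corpus luteum. The median within-line SD of log2 CPM, after TMM scaling, was 0.18 for members and 0.30 for all tested IDs in the endometrium. For the corpus luteum it was 0.28 for members and 0.30 for all tested IDs, and without the 4 libraries that stood apart it was 0.26 and 0.27. An SD above 0.5 was found in the endometrium for 9.17% of members and 23.7% of all tested IDs, and in the corpus luteum for 5.42% and 22.4%. No test was made of these spreads, which depend on the level that chose the members.

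The steadiest endometrial members were ENSBTAG00000011488 and ENSBTAG00000013866, and the steadiest luteal members were ENSBTAG00000014182 and ENSBTAG00000006756. ENSBTAG00000013866 stood at 1076 ± 39.5 CPM in the endometrium (SD, n = 14), with every library between 1018 and 1165 CPM, but at 596 ± 172 CPM in the corpus luteum (SD, n = 12), where it ranged from 421 to 1018 CPM. A steady value in the endometrium thus went with a wide range in the corpus luteum for this ID. ENSBTAG00000011488 stood at 477 ± 35.1 CPM in the endometrium and 367 ± 59.5 CPM in the corpus luteum. ENSBTAG00000014182 stood at 304 ± 23.9 CPM in the corpus luteum and 450 ± 50.7 CPM in the endometrium. ENSBTAG00000006756 stood at 359 ± 37.0 CPM in the corpus luteum and 558 ± 102 CPM in the endometrium, where Fert+ replicate 13 was at 252 CPM and the other 13 libraries were at 514 CPM or more.

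At the other end of the range, ENSBTAG00000014614 and ENSBTAG00000005353 varied most in the endometrium, and ENSBTAG00000005353 and ENSBTAG00000012683 varied most in the corpus luteum. ENSBTAG00000005353 qualified on means that few libraries resembled. In luteal Fert+ replicates 15, 16, 18, 19, 21, 23 and 24 it was at 472, 51.4, 5.27, 665, 7.36, 35 and 57.2 CPM. In Fert- replicates 17, 20, 25, 27 and 28 it was at 2208, 8.6, 202, 647 and 36.7 CPM. The smallest of these, 5.27 CPM, rested on 94 counts and was the lowest value of any member in any library.

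ENSBTAG00000012683 followed the 4 libraries that stood apart. It was at 1548, 1542, 1332 and 1394 CPM in luteal Fert+ replicates 15, 16, 18 and 19, and at 232, 177 and 202 CPM in Fert+ replicates 21, 23 and 24. In Fert- replicates 17, 20, 25, 27 and 28 it was at 111, 192, 162, 202 and 161 CPM. The endometrium held 332 to 430 CPM in all 14 libraries. Its luteal mean of 605 CPM (SD 631, n = 12) therefore lay between the level of the 4 libraries and that of the other 8, where no library was.

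Whether the members differed between the fertility lines was tested with edgeR's quasi-likelihood test over all IDs that passed a filter on low counts, with batch as a term and Benjamini-Hochberg adjustment. All 240 members passed the filter in both tissues. In the endometrium no member passed the test: 0 of 240 had an adjusted p under 0.05, the lowest adjusted p being 0.981, and 0.00% of all 14243 tested IDs passed in either direction. At an unadjusted p under 0.05, 3 of the 240 members were higher in Fert+ and 3 were lower, against 1.65% and 1.36% of all tested IDs. The fitted value was lower in Fert+ for 136 members and higher for 104, against 49.5% of tested IDs lower. No member had lines that did not overlap (0 of 240 in either direction), against 0.0211% of tested IDs with Fert+ above and 0.0140% with Fert+ below. The median log2 fold change of Fert+ over Fert- was -0.01 for members and 0.00 for all tested IDs, and the median absolute log2 fold change was 0.06 against 0.10. The median standard error (SE) was 0.08 for members and 0.15 for all tested IDs.

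The smallest endometrial p-values belonged to IDs whose lines overlapped. ENSBTAG00000016208 had a lowest, median and highest value of 822, 1373 and 1911 CPM in 8 Fert+ libraries and 387, 940 and 1312 CPM in 6 Fert- libraries (log2 fold change 0.65, SE 0.26, edgeR adjusted p = 0.981). Fert- replicate 14, of batch 1 and parity 4, gave the value of 387 CPM and Fert+ replicate 10, of the same batch and parity, that of 822 CPM, each the lowest of its line, whereas Fert- replicate 6, also of that batch and parity, gave the highest Fert- value. ENSBTAG00000020116 was at 316, 783 and 2440 CPM in Fert+ and at 94.8, 473 and 630 CPM in Fert- (log2 fold change 1.37, SE 0.60, edgeR adjusted p = 0.981). Its upper end in Fert+ came from replicate 1, and Fert- replicates 3 and 6 were at 98.4 and 94.8 CPM. Among the IDs lower in Fert+, ENSBTAG00000006487 had a log2 fold change of -0.17 (SE 0.07) and ENSBTAG00000016846 of -0.14 (SE 0.06), both with an edgeR adjusted p of 0.981.

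Luteal members leaned towards lower values in Fert+, but none passed the test with batch as a term. The fitted value was lower in Fert+ for 213 of the 240 members and higher for 27, while 47.1% of the 13462 tested IDs were lower. Again 0 members had an adjusted p under 0.05, the lowest being 0.212, and 0.00% of all tested IDs passed in either direction. At an unadjusted p under 0.05, 127 members (52.9%) were lower in Fert+, against 9.01% of all tested IDs, and 4 members (1.67%) were higher, against 12.1%. The median log2 fold change was -0.38 for members, with quartiles of -0.63 and -0.17, and 0.03 for all tested IDs. Among tested IDs outside the list, 51.1% of those at 300 CPM or more and 64.1% of those at 100 to 300 CPM were lower in Fert+. In a biopsy, fewer cells of a type and less RNA per cell cannot be told apart.

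**Figure D3:**
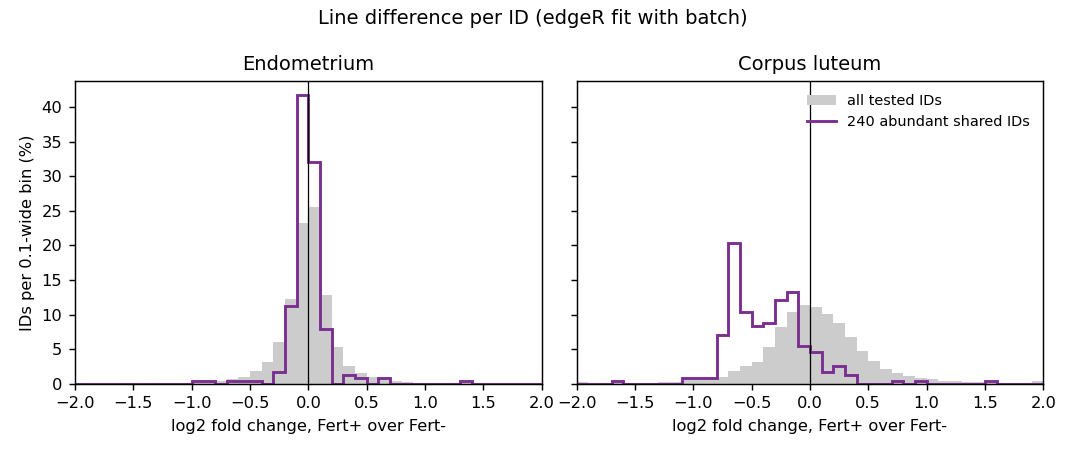
Distribution of the log2 fold change of Fert+ over Fert- for the 240 IDs (purple outline) and all tested IDs (grey), in bins of 0.1, as percent of each set, with values beyond the axis placed in the outermost bins. Both distributions centre near 0 in the endometrium, while in the corpus luteum the median of the 240 IDs lies at -0.38 and that of all tested IDs at 0.03.

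The luteal count of calls depended on the model and on single libraries. Without the batch term 98 members passed, 97 of them lower in Fert+, where 4.21% of all tested IDs passed and were lower. With parity added to batch 174 members passed, 167 of them lower, against 11.8% of all tested IDs lower. Replicates 16 and 19, both among those that stood apart, are the only Fert+ libraries that inform the line effect in that model. Batch or parity terms take up the other Fert+ libraries. DESeq2 with the batch term called 14, all lower, against 0.929%. Leaving out Fert+ replicate 23, the Fert+ library with the highest member share, gave 96 called members, all lower, against 3.44%. The 127 members lower at an unadjusted p under 0.05 became 57 without Fert- replicate 17, against 4.00% of tested IDs. Leaving out Fert+ replicate 19 instead gave 65, against 4.21%. These are the only libraries of batch 2, so when either is left out the batch term takes up the other. Neither then informs the line effect, and the 57 and 65 are not separate checks. Without Fert+ replicates 15, 16, 18 and 19, 0 members were called, 12 were lower at an unadjusted p under 0.05 (2.55% of all tested IDs were) and 198 of 240 were lower in fitted value (51.2% of tested IDs). The median was then -0.19, beside -0.01 for all tested IDs. Once replicates 15, 16, 18 and 19 are left out, each luteal batch that still holds both lines splits them by parity. Line and parity therefore cannot be told apart in fits with the batch term without those libraries.

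Within each batch that held both lines the median member difference was below 0, but batches 2 and 3 drew on libraries that stood apart. The median member difference between lines was -0.29 in batch 1, with 177 of 240 lower, -0.81 in batch 2, with 219 lower, and -0.32 in batch 3, with 216 lower. All tested IDs had medians of 0.00, 0.05 and 0.03 there. Batch 2 held a single library of each line, Fert+ replicate 19 and Fert- replicate 17, so its value has no replicate check. Replicate 19 was among those that stood apart. In batch 3, Fert+ replicate 16, also among them, had a median member deviation of -0.41. Fert+ replicate 23 was at 0.20 there, beside 0.26 and 0.21 in Fert- replicates 25 and 27. In batch 1, which held no library that stood apart, line and parity cannot be told apart.

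More abundant members and those leaning towards the endometrium were further below 0. All 41 members with a lower mean of at least 1000 CPM were lower in Fert+, with a median of -0.58, and 88 of the 108 under 500 CPM were lower, with a median of -0.26. Of the 171 members with the higher mean in the endometrium, 158 were lower, with a median of -0.53, and of the 69 with the higher mean in the corpus luteum, 55 were lower, with a median of -0.19. The tissue ratio is itself computed from the same luteal libraries.

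The lines did not overlap for 11 luteal members (4.58%), all with every Fert+ library below every Fert- library, against 1.23% of tested IDs, and for 0 members in the opposite direction, against 1.06%. Without Fert+ replicates 15, 16, 18 and 19, 12 members had Fert+ wholly below Fert-, against 1.97% of tested IDs. ENSBTAG00000013358, with the smallest luteal p, is among the 11. It was at 382, 391, 341, 316, 440, 453 and 371 CPM in Fert+ replicates 15, 16, 18, 19, 21, 23 and 24, and at 571, 515, 461, 621 and 555 CPM in Fert- replicates 17, 20, 25, 27 and 28. The highest Fert+ value, 453 CPM, was close to the lowest Fert- value, 461 CPM (log2 fold change -0.63, SE 0.15, edgeR adjusted p = 0.212). In the endometrium the same ID averaged 640 ± 97.0 CPM in Fert+ (SD, n = 8) and 615 ± 111 CPM in Fert- (SD, n = 6).

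ENSBTAG00000004553 was next by p, at 346, 393 and 549 CPM (lowest, median and highest) in Fert+ and at 569, 605, 485, 528 and 741 CPM in Fert- replicates 17, 20, 25, 27 and 28. Its lines overlapped through Fert+ replicate 21 (log2 fold change -0.59, SE 0.14, edgeR adjusted p = 0.212). Without the 4 libraries that stood apart, ENSBTAG00000013358 had a log2 fold change of -0.42 and ENSBTAG00000004553 of -0.45, both with an edgeR adjusted p of 0.887.

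Of the members higher in luteal Fert+, ENSBTAG00000012683 had the largest log2 fold change, 1.55 (SE 0.58, edgeR adjusted p = 0.212). Without the 4 libraries that stood apart that value was 0.09 (edgeR adjusted p = 0.921). Of the 4, only replicates 16 and 19 informed it. Replicates 15 and 18 make up luteal batch 4, which has no Fert- library, so the batch term takes up their values. ENSBTAG00000012683 became a member only through the high values of these 4 Fert+ libraries, so its line effect is not separate from its selection. ENSBTAG00000006995 was at 492, 646 and 744 CPM in Fert+ and at 375, 532, 358, 506 and 406 CPM in Fert- replicates 17, 20, 25, 27 and 28 (log2 fold change 0.36, SE 0.14, edgeR adjusted p = 0.212). Without the 4 libraries its log2 fold change was 0.21 (edgeR adjusted p = 0.887).

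The difference between the line effects of the tissues was tested in a single fit of all 26 libraries. As in each tissue, 0 of 240 members passed, with a lowest adjusted p of 0.270, and 0.00% of the 14968 tested IDs passed in either direction. The luteal effect was the lower of the tissues' effects for 214 members, against 50.7% of tested IDs, and 116 members (48.3%) were lower at an unadjusted p under 0.05, against 7.66%. In the opposite direction 2 members (0.833%) reached an unadjusted p under 0.05, against 7.39%. The median difference was -0.41 for members and -0.01 for all tested IDs. With parity added 142 members passed, 137 of them lower, against 7.36% of tested IDs lower. Replicates 16 and 19 were again the only luteal Fert+ libraries that informed the line effect there. Without luteal Fert+ replicate 23, 91 passed, 90 of them lower, against 2.26%. Without the 4 luteal libraries that stood apart the median was -0.18, and 45 members were lower at an unadjusted p under 0.05, against 2.89%. Line and parity cannot be told apart in the luteal part of that fit.

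Smallest by p in the lower direction of this difference were ENSBTAG00000006346 and ENSBTAG00000005142. ENSBTAG00000006346 averaged 291 ± 32.6 CPM in luteal Fert+ (SD, n = 7) and 349 ± 34.7 CPM in luteal Fert- (SD, n = 5), with 554 ± 88.5 and 498 ± 35.1 CPM in the endometrium (SD, n = 8 and n = 6). Its difference of effects was -0.56 (SE 0.15, edgeR adjusted p = 0.270). ENSBTAG00000005142 averaged 487 ± 94.1 and 754 ± 165 CPM in the luteal lines and 956 ± 77.9 and 944 ± 47.6 CPM in the endometrial lines, a difference of -0.78 (SE 0.21, edgeR adjusted p = 0.270). In the endometrium its lines were level, and in the corpus luteum Fert+ replicate 23, at 686 CPM, was the only Fert+ library above 521 CPM. ENSBTAG00000005142 belongs to a block, described next, that was picked by high values in Fert- replicate 17. Its luteal values and difference of effects include that library.

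Among the members, 91 moved almost as a block across the luteal libraries. They were picked after their values were seen, as the members whose TMM-scaled log2 level in Fert- replicate 17 was more than 0.7 above their luteal mean. No gap separates them fully, since 22 members lay between 0.6 and 0.8, and nothing about the block was tested. In replicate 17, which chose them, their median deviation was 0.97, against 0.21 for the other 149 members. In the 11 luteal libraries that did not choose them, the 10th and 90th percentiles of the block lay 0.19 to 0.32 apart on the log2 scale, whereas those of the other 149 members lay 0.41 to 0.88 apart. In Fert+ replicates 15, 16, 18, 19, 21, 23 and 24 the block's median deviation was -0.59, -0.60, -0.43, -0.46, -0.29, 0.32 and -0.11. In Fert- replicates 20, 25, 27 and 28 it was 0.08, 0.43, 0.27 and 0.45. Replicate 23 was thus the only Fert+ library in which the block lay above its luteal mean. The narrow width was not particular to the corpus luteum. In the endometrium those percentiles lay 0.20 to 0.41 apart for the block and 0.36 to 0.95 apart for the other members. Block members were also more abundant, with a median lower mean of 688 CPM against 468 CPM.

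**Figure D4:**
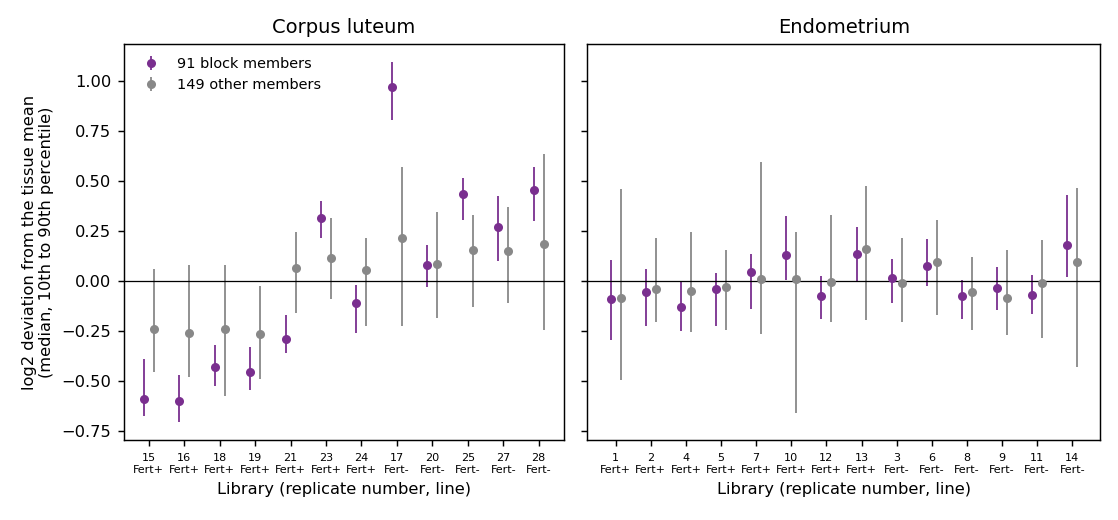
Deviation of log2 CPM (TMM scaling) from the tissue mean in each library, as the median (point) and the 10th to 90th percentile (line) of the 91 block members (purple) and the other 149 members (grey). The purple lines are shorter and their points run from -0.60 to 0.97 in the corpus luteum, while in the endometrium they stay between -0.13 and 0.18.

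The block leaned strongly towards the endometrium. Its mean was higher there for 88 of 91 IDs, and the median ratio of the corpus luteum to the endometrium was 0.682, against 0.934 for the other 149 members. It held 6.46% ± 1.2 of all counts in luteal Fert+ (SD, n = 7), 9.51% ± 2.06 in luteal Fert- (SD, n = 5), 11% ± 1.21 in endometrial Fert+ (SD, n = 8) and 11.5% ± 1.06 in endometrial Fert- (SD, n = 6). The luteal Fert- share includes replicate 17, the library that chose the block, at 13.1%, while the other luteal Fert- libraries were at 7.92% to 9.37%. That library was a high one, so the fitted luteal line effect of the block as a whole is given only from fits without replicate 17. Block members were picked from these luteal data and moved together, so they are not 91 separate results and no counts by p-value are given. Without replicate 17, 91 of 91 were lower in Fert+, with a median log2 fold change of -0.46. Fert+ replicate 19 is alone in its batch in that fit, so it does not inform that line effect either. Of the other 149 members, 113 were lower in that fit, with a median of -0.14. With Fert+ replicates 15, 16, 18 and 19 left out as well, 91 of the block were lower, against 51.1% of tested IDs, with a median of -0.31, and 7 had an unadjusted p under 0.05, against 2.45%. In the endometrium the median line effect of the block was -0.03.

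The remaining 149 members moved with the block in part. Their median deviation was -0.24, -0.26, -0.24 and -0.26 in luteal Fert+ replicates 15, 16, 18 and 19, and 0.06, 0.11 and 0.06 in Fert+ replicates 21, 23 and 24. In Fert- replicates 17, 20, 25, 27 and 28 it lay between 0.08 and 0.21. None of the 11 members whose luteal lines did not overlap belonged to the block. Over all pairs of the 240 members, the median Pearson correlation of log2 CPM was 0.36 across the 8 luteal libraries left without replicates 15, 16, 18 and 19 (Spearman 0.33), and 0.17 across the 11 endometrial libraries left without batch 1 and parity 4 (Spearman 0.15). These values share the libraries and their scaling, and with library totals alone they were 0.18 (Spearman 0.17) and 0.31 (Spearman 0.20).

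Batch was tested in the same fits. A single member had an adjusted p under 0.05 in the endometrium, ENSBTAG00000039684, where 0.0562% of tested IDs passed. It was at 1559, 1332, 1443, 1450 and 1425 CPM in batch 1 replicates 6, 7, 10, 13 and 14, and between 629 and 1209 CPM in the other 9 libraries, so batch 1 lay wholly above the rest (edgeR adjusted p = 0.0392). Its values did not follow line, with 1104 ± 299 CPM in Fert+ (SD, n = 8) and 1140 ± 285 CPM in Fert- (SD, n = 6). At an unadjusted p under 0.05, 67 members (27.9%) varied by batch, against 13.2% of tested IDs. Without the 3 libraries of batch 1 and parity 4, 0 members passed the adjusted test, against 0.00% of tested IDs, and 25 (10.4%) had an unadjusted p under 0.05, against 9.72%. The median deviation of the members was between 0.03 and 0.15 in the 5 batch 1 libraries and between -0.09 and 0.00 in the other 9. In the corpus luteum 0 members passed, against 0.00% of tested IDs, and 6 (2.50%) had an unadjusted p under 0.05, against 8.34%.

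Inside endometrial batch 1, the 3 libraries of parity 4 carried the largest departures. For 24 of the 240 members these 3 libraries were above all 11 others, against 3.71% of tested IDs, and for 0 members they were below, against 1.71%. They were above by over 1 in mean log2 CPM for 5 of the 240 members, against 1.47% of the 14243 tested IDs. Of the 528 tested IDs that were above, 210 differed by over 1. The other 19 of the 24 members differed by between 0.14 and 0.97. Of the 24, 18 belonged to the luteal block.

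**Figure D5:**
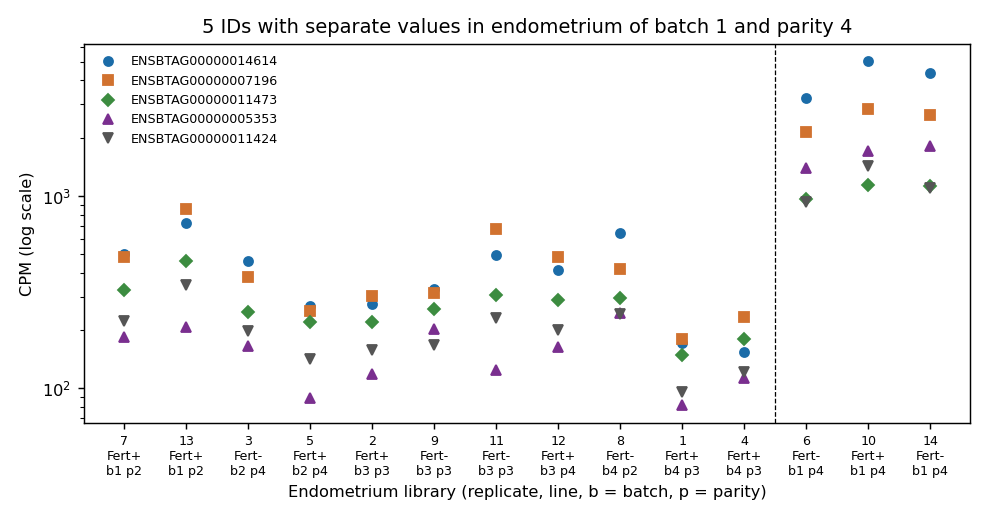
CPM (log scale) of the 5 members with the largest departures in the 14 endometrium libraries, with the 3 libraries of batch 1 and parity 4 to the right of the dashed line. For all 5 IDs these 3 libraries lie above the other 11, and for ENSBTAG00000014614 they are at 3258 to 5038 CPM.

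All 5 IDs had the same 3 libraries at the top. ENSBTAG00000014614 was at 3258, 5038 and 4397 CPM in replicates 6, 10 and 14 and between 154 and 724 CPM in the other 11, a difference of 3.54 in mean log2 CPM. ENSBTAG00000005353 was at 1395, 1710 and 1823 CPM against 81.4 to 247 CPM, a difference of 3.5. For ENSBTAG00000007196 the values were 2161, 2843 and 2644 CPM against 179 to 857 CPM, a difference of 2.77. In each case the batch 1 libraries of parity 2, Fert+ replicates 7 and 13, stayed with the other libraries.

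ENSBTAG00000011424, the member nearest the level threshold, was at 928, 1442 and 1103 CPM against 95.9 to 344 CPM, a difference of 2.66. ENSBTAG00000011473 was at 969, 1143 and 1127 CPM against 148 to 462 CPM, a difference of 2.08. No batch effect on these 5 passed the adjusted test (edgeR adjusted p from 0.0690 to 0.114), and no line effect did (edgeR adjusted p = 0.981 for each). All 5 belonged to the luteal block, which was picked by high values in Fert- replicate 17. A high value in that replicate therefore follows from the choice and is not a separate result. Fert- replicate 17, of batch 2 and parity 4, was the highest luteal library for 4 of them, at 2208 CPM for ENSBTAG00000005353, 1388 CPM for ENSBTAG00000007196, 1045 CPM for ENSBTAG00000011473 and 991 CPM for ENSBTAG00000011424. For ENSBTAG00000014614 the highest was Fert- replicate 25, at 1289 CPM, with replicate 17 at 1218 CPM. Over the other 11 endometrium libraries, ENSBTAG00000014614 and ENSBTAG00000007196 averaged 403 ± 183 and 415 ± 203 CPM (SD, n = 11), still above the level of the selection. ENSBTAG00000011473, ENSBTAG00000005353 and ENSBTAG00000011424 averaged 268 ± 84.0, 154 ± 53.3 and 193 ± 68.3 CPM there, below it. With no gene names, their functions were not determined.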

How the data were processed

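RNA was extracted with TRIzol, and libraries of polyadenylated RNA were made with a TruSeq RNA kit, per the labels' protocols. That kit gives unstranded reads. Build UMD3.1, STAR 2.3.0, featureCounts, Trim Galore, FastQC 0.10.0 and CASAVA 1.9 are named in the submitters' processing notes. The authors deposited raw read counts per Ensembl ID for each of 26 libraries, with no normalization. No annotation release, strand setting or rule for reads mapped to several places is given in the sources used here. IDs that overlap or have near-identical copies are uncertain.

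The members, the lists and the 4 luteal libraries set aside were chosen with earlier results of these data known. CPM used library totals. Tests used edgeR 4.0.16 in R 4.3.3 (filterByExpr, TMM, robust glmQLFit and glmQLFTest, batch as a factor, 1 fit per tissue, Benjamini-Hochberg over all tested IDs), after a check on simulated counts. Alternatives used DESeq2 1.42.0, limma 3.58.1, other scalings, filters and designs, and each library left out. Fits within batches, the library-total scaling of the tests, the fits without the endometrial libraries of batch 1 and parity 4, and the tissue difference and shares without the 4 luteal libraries, and the fit without these and Fert- replicate 17, were chosen after seeing the data. IDs named are the 5 with the highest lower mean, the 2 with the smallest p per direction in each line comparison, the 2 most and least variable per tissue and the 2 either side of each threshold. ENSBTAG00000039684, ENSBTAG00000007196, ENSBTAG00000011473 and the block of 91 were singled out after their values were seen.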

Additional observations from a re-analysis of the deposited data

Results flagged for a closer look

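Within each group of libraries, the CPM of 28 named members and the members' share of counts were screened for a library far from the rest by Dixon's criterion. In 116 groups of values there were 13 such libraries. Chance gives about 1 in 20 groups, but several of these IDs were named for their wide spread or after their values were seen, so the number is not set against chance.

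In endometrial Fert+ replicate 10, of batch 1 and parity 4, ENSBTAG00000014614 was at 5038 CPM with the nearest library at 724, ENSBTAG00000005353 at 1710 with the nearest at 207, and ENSBTAG00000011424 at 1442 with the nearest at 344. ENSBTAG00000007196 was at 2843 CPM there with the nearest at 857, and ENSBTAG00000011473 at 1143 with the nearest at 462. In endometrial Fert- replicate 14, of the same batch and parity, ENSBTAG00000014534 was at 7355 CPM with the nearest at 6216. ENSBTAG00000043558 was at 8427 CPM in endometrial Fert- replicate 6, with the nearest at 6504, and at 3346 CPM in endometrial Fert+ replicate 13, with the nearest at 5422. ENSBTAG00000006756 was also low in that replicate 13, at 252 CPM, with the nearest at 514.

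Luteal Fert+ replicate 23 was high for 3 IDs: ENSBTAG00000006487 at 793 CPM with the nearest at 514, ENSBTAG00000005142 at 686 with the nearest at 521, and ENSBTAG00000016959 at 833 with the nearest at 588. In luteal Fert- replicate 17, ENSBTAG00000011424 was at 991 CPM with the nearest at 367.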

How the results depend on the processing

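Luteal and tissue-difference medians were below 0 in all alternatives run, and no called value changed sign. Small endometrial values did change sign: the line difference in share, -0.135 points, was 0.368 with TMM and -0.48 to 0.36 with a library left out, and the median line effect, -0.012, was 0.0041 within batch 3. In the endometrium 0 members passed the line test in any alternative, DESeq2, limma and each library left out included, while members lower at an unadjusted p under 0.05 numbered 1 without batch (1.17% of all tested IDs), 7 with batch and parity (1.78%), 7 with DESeq2 (1.81%), 9 with limma (2.51%), 1 within batch 1 (1.05%), 5 without batch 1 parity 4 (1.27%), and 1 to 12 with a library left out (12 without Fert+ replicate 10, 3.61% of tested IDs). The single batch call fell to 0 without batch 1 parity 4. In the corpus luteum, called members numbered 98 without batch, 174 with batch and parity (median log2 fold change -0.71), 14 with DESeq2, 62 in a fit of all libraries, and 0 to 96 with a library left out, 96 without Fert+ replicate 23. The 62 were all lower in Fert+, where 171 of 14968 tested IDs passed and were lower. With batch and parity, only Fert+ replicates 16 and 19 informed the luteal line effect on the Fert+ side. Members lower at an unadjusted p under 0.05 numbered 12 without the 4 libraries apart (2.55% of tested IDs), 12 without these and Fert- replicate 17 (2.45%), 29 without these 4 and batch (3.40%), 34 within batch 1 (5.85%), 4 within batch 3 (1.06%), and 57 to 156 with a library left out (4.00% to 14.3% of tested IDs). Without the 4, Fert- replicate 17 is alone in its batch and the batch term takes up its value. Leaving it out as well is therefore not a separate check. Luteal line and parity also cannot be told apart in the fits with batch without the 4. The median stayed between -0.49 and -0.28 with a library left out. Library totals, in place of TMM, moved the luteal median of all tested IDs to 0.18 and that of members to -0.23. Of the members 189 were then lower and 51 higher, while 4057 of 13462 tested IDs were lower. The gap between those medians was -0.41 under either scaling. For the tissue difference, called members numbered 142 with batch and parity (median -0.73) and 0 to 91 with a library left out, and without the 4 libraries 45 were lower at that p (median -0.18). TMM-scaled selection gave a luteal line difference in share of -8.56 points. Other selection rules gave luteal shares of 16.1% (500 CPM) and 12.9% (1.5-fold), and endometrial shares of 26.8% (200 CPM), 19.5% (500 CPM) and 14.4% (1.5-fold). Library totals gave median pair correlations of 0.31 (endometrium) and 0.18 (corpus luteum). The rule kept at least 233 of the 240 members with any library left out, and 222 under TMM. Causes were not tested. No paired analysis was possible because no replicate number is shared between groups. Counting error was small for these IDs; the smallest change that 5 to 8 libraries per group could detect was not determined.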
